A study of Mus musculus with 10 samples.

Results

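The receptors that bind the constant (Fc) part of immunoglobulin G were examined in RNA from hippocampal microglia, as 6 genes chosen by symbol from the 55453 genes of the count table. These were the activating receptors *Fcgr1*, *Fcgr3* and *Fcgr4*, the inhibitory receptor *Fcgr2b*, the signalling chain *Fcer1g* and the neonatal Fc receptor *Fcgrt*. The libraries came from female 3xTg mice over 15 months of age, which carry mutated human transgenes, by the study's methods under the neuronal Thy1.2 promoter. Both groups carried these transgenes, and no library of non-transgenic mice was analysed here. Of the 10 libraries, 5 came from mice that received PBS and 5 from mice that received GA (glatiramer acetate, an immunomodulatory peptide mixture used in multiple sclerosis), injected subcutaneously at 0.1 mg a week for about 8 weeks, by the study's methods with an extra injection in the first week. Cells were sorted as CD45int CD11b+, and by the study's methods the suspension had first been incubated with an antibody that blocks Fc receptors. The PBS libraries have titles with the prefix 388 and the GA libraries have titles with the prefixes 394 (2 libraries) and 400 (3 libraries), so that prefix and treatment cannot be told apart. Nothing states that the 10 libraries came from 10 separate mice, and the *P*-values measure only the spread between them.

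Fc gamma receptors couple antibody to the phagocyte that carries them. When IgG on a target crosslinks FcγRI, FcγRIII or FcγRIV (encoded by *Fcgr1*, *Fcgr3* and *Fcgr4*), the kinases of the Src family phosphorylate the ITAM of the associated FcRγ chain (encoded by *Fcer1g*), Syk is recruited, and uptake and cytokine release follow. FcγRIIB (encoded by *Fcgr2b*) carries an ITIM instead, recruits the phosphatase SHIP1 (encoded by *Inpp5d*) and dampens that response, while FcRn (encoded by *Fcgrt*) pairs with β2-microglobulin inside the cell and returns IgG to the surface. In brain, microglia are known to carry these receptors, which take part in the clearance of antibody-bound amyloid.

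The sequences that set the activating and inhibitory genes apart were taken from GENCODE M21 transcripts on GRCm38, the build that the submitters' processing notes also name. They are shown 5′ to 3′ on the coding strand, with the codons of the motif's tyrosines and of its leucines or isoleucine in capitals. The ITAM of *Fcer1g* is encoded by codons 65 to 79 of 86, on exons between chr1:171229889-171230072, minus strand. The ITIM of *Fcgr2b* is encoded by codons 317 to 322 of 340, at chr1:170961071-170961088, minus strand.
Fcer1g ITAM: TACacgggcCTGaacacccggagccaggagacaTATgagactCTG
Fcgr2b ITIM: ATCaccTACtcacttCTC
The 6-codon ITIM pattern is short, and it was also found in the coding sequences of *Fcgr1*, *Fcgr4*, *Fcer1g* and *Fcgrt*, so a match by itself is only a description of the letters. The ITAM pattern was found in *Fcer1g* alone among the 6 genes.

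*Fcgr2b*, *Fcgr4*, *Fcgr3* and *Fcer1g* lie close together on chromosome 1. *Fcgr2b* (ENSMUSG00000026656.15) spans chr1:170958617-170976547 on the minus strand, *Fcgr4* (ENSMUSG00000059089.4) chr1:171018920-171029761 on the plus strand, *Fcgr3* (ENSMUSG00000059498.13) chr1:171051174-171064935 on the minus strand and *Fcer1g* (ENSMUSG00000058715.11) chr1:171229572-171234365 on the minus strand. *Fcgr1* (ENSMUSG00000015947.10) spans chr3:96282909-96293969 and *Fcgrt* (ENSMUSG00000003420.8) chr7:45092990-45103851, both on the minus strand. The coding sequences of *Fcgr2b* and *Fcgr3* were identical at 87.5% of 782 aligned bases, whereas the other 5 pairs among the 4 receptors reached 67.8% to 69.8%. Within a block of 243 bases, positions 278 to 520 of the *Fcgr2b* coding sequence counted from its ATG, the 2 genes differed at a single base (T407G, *Fcgr2b* base first). The block encodes part of the extracellular domains, and the 2 runs in it that are the same in both genes are shown because a read of 100 bases that falls inside one of them fits either gene. The first run, of 129 bases across an exon junction, lies within chr1:170966674-170968081 in *Fcgr2b* and chr1:171054167-171057792 in *Fcgr3*. The second, of 113 bases, lies at chr1:170966560-170966672 and chr1:171054053-171054165.
Run before the difference: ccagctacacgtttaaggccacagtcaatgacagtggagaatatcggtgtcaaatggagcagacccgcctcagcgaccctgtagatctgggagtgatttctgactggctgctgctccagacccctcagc
Run after the difference: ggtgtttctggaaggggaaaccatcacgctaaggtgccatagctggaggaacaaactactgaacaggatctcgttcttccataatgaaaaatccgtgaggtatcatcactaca
Such stretches were a small part of either gene. Of the distinct 100-base windows in the annotated transcripts, 2.54% of 1733 in *Fcgr3* occurred in another gene, all of them in *Fcgr2b*, and 4.30% of 5843 in *Fcgr2b* occurred in other genes. For *Fcgr1*, *Fcgr4*, *Fcer1g* and *Fcgrt* the share was 0%. How reads that fit 2 genes were counted is not given in the sources used here. The annotation also places *Gm38204* over *Fcgr2b* on the opposite strand with 155 shared exon bases, and this gene was counted 0 times in every library. *Gm45669* lies over *Fcgrt* on the opposite strand, with 0 shared exon bases and 0 to 5 counts, and *Mir6546* and *Gm26110* lie within *Fcgr3* and *Fcgr4*.

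The sorted cells had high levels of microglial transcripts in every library. The summed level of the 11 microglial markers examined ran from 54362 to 64339 CPM with PBS and from 55430 to 60195 CPM with GA (CPM, the count scaled to library size with edgeR's TMM normalization), with *P2ry12* between 5570 and 7351 CPM. Total counts per library ran from 32332185 to 38764643. Transcripts of other leukocytes were present at lower levels that differed between libraries. The 8 neutrophil markers summed to between 37.9 and 446 CPM with PBS and between 10.9 and 169 CPM with GA, the 7 monocyte markers to between 41.6 and 165 CPM and between 49.0 and 99.9 CPM, and the 8 border macrophage markers to between 41.4 and 202 CPM and between 41.2 and 150 CPM. The 7 NK and T cell markers stayed at or below 0.453 CPM with *Ncr1* at 0 counts throughout, and the 5 mast cell and basophil markers were at 0 counts in all 10 libraries. PBS library 388_4 stood apart, with the lowest microglial sum, the highest monocyte and border macrophage sums, and *Itgam* (CD11b) at 88.7 CPM, beside a PBS median of 211 CPM and a GA range of 197 to 299 CPM. Values without this library are therefore given where they matter. In bulk RNA, fewer cells of a type and less RNA per cell cannot be told apart.

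Each of the 6 genes was counted often enough to be tested, as were 14481 genes in all. Levels were compared between genes as CPM per kilobase of merged exons. *Fcgr3* and *Fcer1g* were the most abundant, at 997 ± 84.1 (SD, n = 5) and 938 ± 133 (SD, n = 5) CPM per kilobase with PBS and 1028 ± 70.6 (SD, n = 5) and 898 ± 27.4 (SD, n = 5) with GA. Their ranges over the 10 libraries overlapped, and *Fcgr3* was above *Fcer1g* in 9 of 10 libraries, the exception being 388_4. *Fcgr1* at 107 ± 4.53 (SD, n = 5) and *Fcgrt* at 110 ± 9.02 (SD, n = 5) CPM per kilobase with PBS, and at 106 ± 5.47 and 98.8 ± 3.36 (SD, n = 5 each) with GA, came next. Their ranges overlapped, with *Fcgr1* above *Fcgrt* in 8 of 10 libraries, all 5 GA libraries among them. *Fcgr2b* followed at 68.8 ± 5.13 (SD, n = 5) with PBS and 71.5 ± 3.15 (SD, n = 5) with GA, below *Fcgrt* in all 10 libraries. *Fcgr4* was the least abundant, at 10.9 ± 2.50 (SD, n = 5) and 13.7 ± 2.21 (SD, n = 5) CPM per kilobase, and the median library had 5.77 times as much *Fcgr2b*. The place of *Fcgr2b* rests on its length, since its 5790 bases of merged exons join 7 annotated transcripts. With the longest annotated transcript (3544 bases) in their place, *Fcgrt*, *Fcgr2b* and *Fcgr1* followed each other in that order with overlapping ranges, while *Fcgr3*, *Fcer1g* and *Fcgr4* kept their places.

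**Figure D1:**
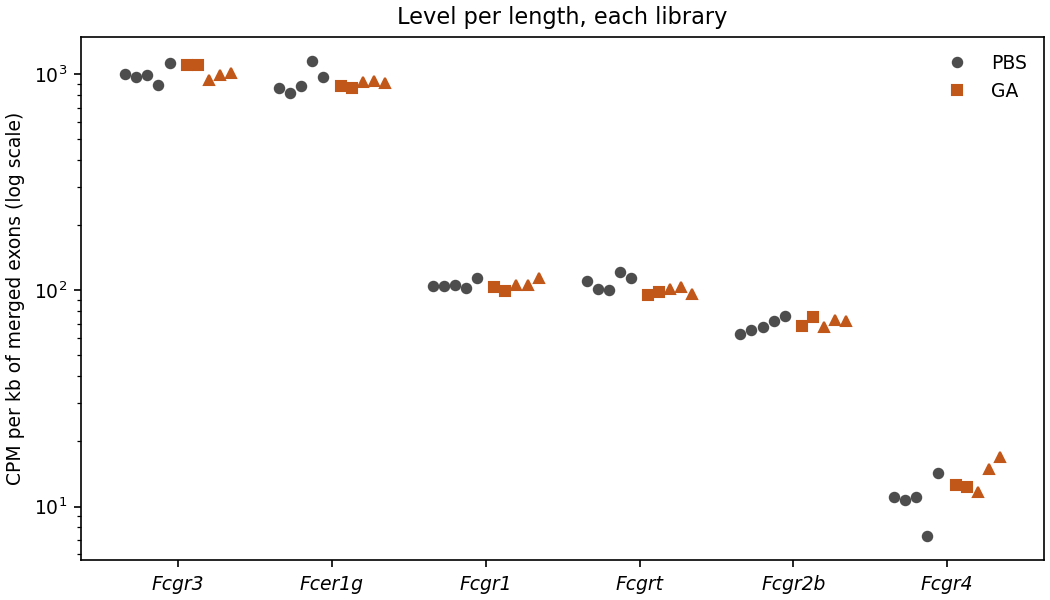
Level of each gene in CPM per kilobase of merged exons (log scale) in each of the 10 libraries, PBS in dark grey and GA in orange, with circles for title prefix 388, squares for 394 and triangles for 400. *Fcgr3* and *Fcer1g* lie near 1000, *Fcgr1*, *Fcgrt* and *Fcgr2b* between 63.2 and 122, and *Fcgr4* between 7.28 and 17.0.

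For the comparison of GA with PBS, edgeR's quasi-likelihood F-test called 0 of the 6 genes at an adjusted *P*-value under 0.05, with 0 of all 14481 genes called (0%). DESeq2 called 2 of all genes (*Gm1070* and *Dcstamp*) and 0 of the 6. At an unadjusted *P*-value under 0.05, 1 of the 6 genes (*Fcgrt*, lower with GA) passed in edgeR, beside 833 of all genes (5.75%), of which 459 were lower (3.17%) and 374 higher (2.58%) with GA. In the fitted values 3 of the 6 were higher and 3 lower with GA, and of all genes tested 50.1% were higher. For 0 of the 6 genes did the PBS and GA libraries separate without overlap, as they did for 129 of all genes (0.891%).

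*Fcgr1* encodes the high-affinity receptor FcγRI (CD64), which binds monomeric IgG. Its level was 272, 271, 273, 267 and 296 CPM in PBS libraries 388_1 to 388_5, and 268, 256, 274, 275 and 295 CPM in GA libraries 394_1, 394_2, 400_1, 400_2 and 400_3. The groups overlapped almost completely, and the highest library of each group had nearly the same value. GA differed from PBS by -0.01 on the log2 scale (edgeR, SE 0.06, adjusted *P* = 0.987), with a 95% interval from 0.910-fold to 1.08-fold, unadjusted for the number of genes. Its sign differed between fits, being positive without PBS library 388_5, without GA library 394_2 and with the GA libraries of prefix 400 alone (0.04). *Fcgr1* was also among the steadiest genes of these libraries, with a within-group SD of 0.07 on the log2 scale, lower than that of all but 6.42% of the 1993 genes at 100 CPM or more, whose median SD was 0.12.

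*Fcgr3* encodes FcγRIII (CD16), the low-affinity activating receptor. Its level was 1732, 1686, 1727, 1554 and 1959 CPM in the PBS libraries in title order, with the lowest value in 388_4 and the highest in 388_5. The GA libraries had 1910 and 1904 CPM under prefix 394 and 1626, 1717 and 1766 CPM under prefix 400, all 5 inside the PBS range. The log2 fold change between treatments was 0.04 (standard error 0.07, adjusted *P* = 0.958 from edgeR), with a 95% interval from 0.931-fold to 1.14-fold. It was 0.01 without 388_4 and 0.10 without 388_5. Within the GA group both libraries of prefix 394 lay above the 3 of prefix 400, a separation that so few libraries reach easily. That difference, 400 against 394, was -0.16 on the log2 scale (standard error 0.05, unadjusted *P* = 0.0116 and adjusted *P* = 0.331 from edgeR's test). It was 1 of 6 such comparisons, and the unadjusted *P*-values of the other 5 genes ran from 0.142 to 0.784. The fitted difference between treatments in *Fcgr3* was 0.15 with prefix 394 alone and -0.02 with prefix 400 alone.

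*Fcgr4* encodes FcγRIV, an activating receptor of intermediate affinity for IgG2 subclasses that is known from monocytes, macrophages and neutrophils. It was counted 295 to 830 times per library, against 6654 to 69108 times for the other 5 genes. Its level was 13.9, 13.4, 14.0, 9.14 and 18.0 CPM in the PBS libraries in title order and 15.8, 15.5, 14.6, 18.7 and 21.4 CPM in the GA libraries. GA libraries 400_2 and 400_3 lay above every PBS library, and the other 3 lay inside the PBS range. *Fcgr4* had the largest fitted difference of the 6 genes, a log2 fold change of 0.33 (standard error 0.16, unadjusted *P* = 0.0618, adjusted *P* = 0.872 from edgeR), with a 95% interval from -0.02 to 0.68. A two-sided exact permutation test on log2(CPM + 0.1) gave *P* = 0.0952 (n = 5 per group). The low PBS value of 388_4 bore on this difference, which was 0.22 without that library (unadjusted *P* = 0.136 from edgeR). Without PBS library 388_5 it was 0.45 (unadjusted *P* = 0.0128, adjusted *P* = 0.585 from edgeR). Without GA library 400_3 it was 0.24 (unadjusted *P* = 0.173 from edgeR). The unadjusted *P*-value was under 0.05 in 3 of 19 fits. The fitted difference was 0.20 with the GA libraries of prefix 394 alone and 0.42 with those of prefix 400 alone. Prefix 400 was that of both GA libraries that exceeded every PBS library. The neutrophil markers, in whose cells *Fcgr4* is known, summed to 159, 37.9, 446, 287 and 367 CPM in the PBS libraries in title order and to 42.3, 169, 10.9, 18.6 and 105 CPM in the GA libraries. The lowest *Fcgr4* level of each group was in 388_4, the middle of the PBS neutrophil sums, and 400_1, the lowest of the GA sums. The libraries with the highest *Fcgr4* level, 388_5 and 400_3, were each next to the top of their group's sums. The monocyte and border macrophage sums were highest in 388_4 (165 and 202 CPM), the library with the lowest *Fcgr4* level. The part of these cells in the *Fcgr4* values was not tested.

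*Fcgr2b* encodes FcγRIIB (CD32B), the only inhibitory receptor of the family. Its level was 366, 379, 390, 417 and 439 CPM in the PBS libraries in title order and 398, 436, 393, 424 and 418 CPM in the GA libraries. Every GA library lay inside the PBS range. GA differed from PBS by 0.06 on the log2 scale (edgeR, SE 0.06, adjusted *P* = 0.947), with a 95% interval from 0.945-fold to 1.14-fold, and removing any 1 library left this between 0.03 and 0.10.

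*Fcer1g* encodes the FcRγ chain, through which the activating receptors signal and on which their surface expression depends. Its level was 754, 718, 772, 1011 and 846 CPM in the PBS libraries in title order, and 770, 751, 802, 809 and 792 CPM in the GA libraries. The 5 GA libraries were tightly grouped (785 ± 24.0 CPM, SD, n = 5) and lay inside the wider PBS range (820 ± 116 CPM, SD, n = 5), whose upper end was library 388_4. GA differed from PBS by -0.06 on the log2 scale (edgeR, SE 0.08, adjusted *P* = 0.951), with a 95% interval from 0.846-fold to 1.08-fold. Without 388_4 the PBS mean was 772 ± 53.7 CPM (SD, n = 4) and the log2 fold change turned to 0.02. Library 388_4 also had the highest monocyte (165 CPM) and border macrophage (202 CPM) marker sums, whose part in its *Fcer1g* value was not tested.

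*Fcgrt* encodes the heavy chain of FcRn, which is related to MHC class I and binds IgG at acidic pH. Its level was 232, 212, 211, 256 and 240 CPM in the PBS libraries in title order and 199, 207, 212, 217 and 203 CPM in the GA libraries. GA libraries 394_1, 394_2 and 400_3 lay below every PBS library, and the other 2 lay inside the PBS range. The log2 fold change was -0.15 (standard error 0.07, unadjusted *P* = 0.0398, adjusted *P* = 0.854 from edgeR), with a 95% interval from 0.818-fold to 0.994-fold. A two-sided exact permutation test gave *P* = 0.0397 (n = 5 per group), the smallest of the 6 such tests of single genes, where 0.00794 is the smallest value 5 against 5 libraries can give. The fitted value was negative in all 19 fits, from -0.18 to -0.11, and the unadjusted *P*-value was under 0.05 in 9 of them. These fits reuse the same 10 libraries and are not independent. With 1 library left out, edgeR's unadjusted *P*-value ran from 0.0222 to 0.0986, the latter without PBS library 388_4. The fitted value was also weakest without 388_4 (-0.11), which had the highest *Fcgrt* level as well as those marker sums, whose part was again not tested. Its partner *B2m*, the light chain shared with MHC class I, had 1745 ± 278 CPM in PBS and 1793 ± 379 CPM in GA libraries (SD, n = 5 each), which differed by 0.04 on the log2 scale (edgeR, SE 0.14, adjusted *P* = 0.978).

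**Figure D2:**
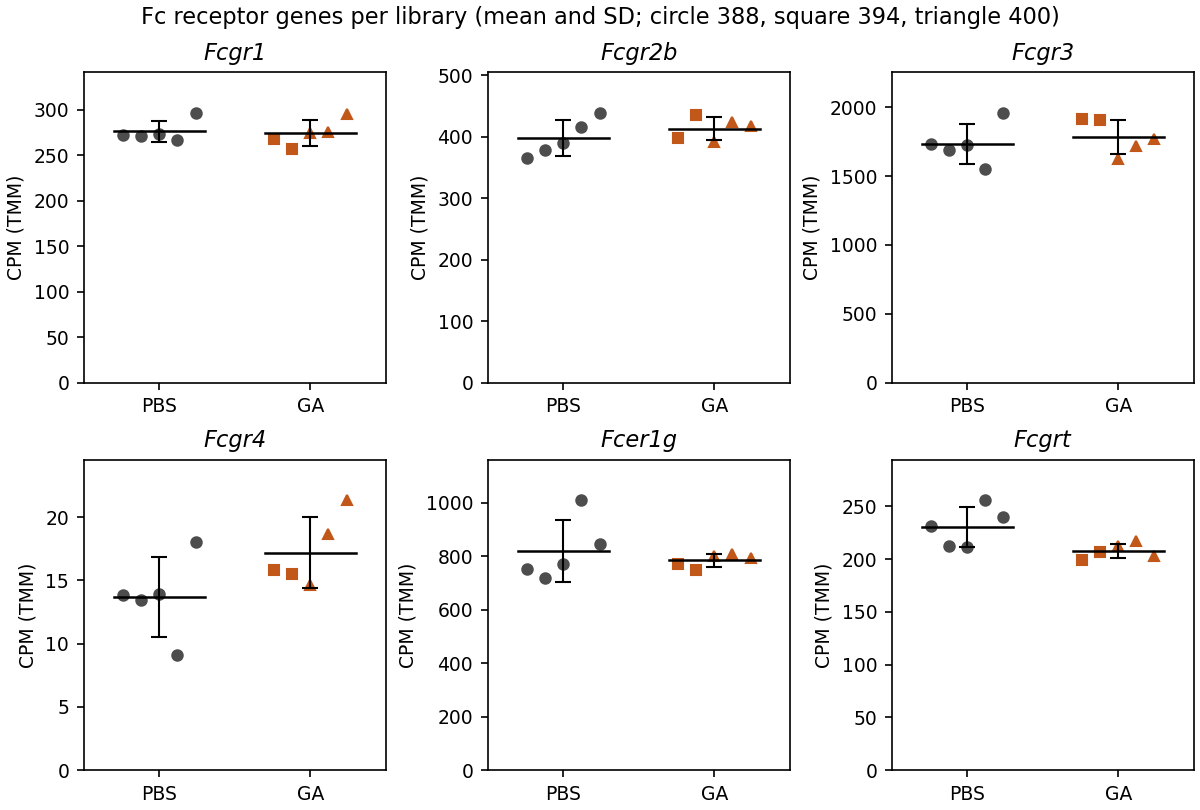
CPM of the 6 genes in each library by treatment (circles, prefix 388; squares, 394; triangles, 400), with the mean as a line and the SD as bars, n = 5 per group. The groups overlap for every gene; *Fcgr4* reaches 21.4 CPM in a GA library, and 3 GA libraries of *Fcgrt* lie below the lowest PBS value of 211 CPM.

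**Figure D3:**
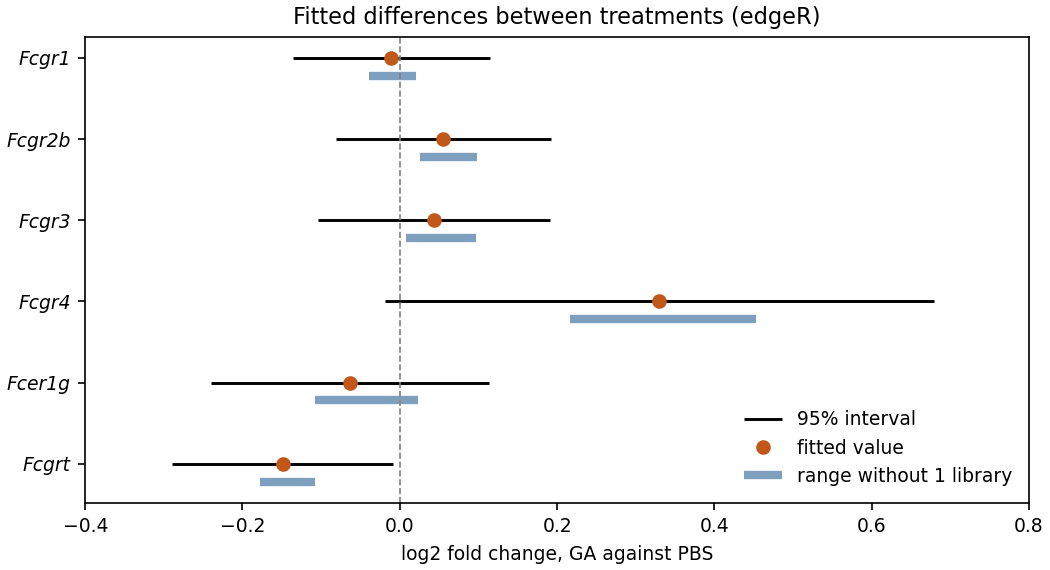
Fitted log2 fold change of GA against PBS from edgeR (points) with its 95% interval (black) and the range of the value when each library is left out in turn (blue). The intervals of 5 genes include 0; that of *Fcgrt* ends at -0.01, before adjustment for the number of genes tested.

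The response of a cell to IgG depends on activating receptors relative to the inhibitory one, so *Fcgr1*, *Fcgr3* and *Fcgr4* were set against *Fcgr2b* within each library. The signalling chain *Fcer1g* and the neonatal receptor *Fcgrt* were set against it as well, but their ratios do not measure that balance. These ratios are of CPM and are not corrected for length. The ratio of *Fcgr3* to *Fcgr2b* was 3.73 to 4.74 with PBS and 4.05 to 4.80 with GA, and its mean log2 value differed by -0.01 between the groups (2.12 ± 0.13 with PBS and 2.11 ± 0.10 with GA, SD, n = 5). Leaving out 1 library moved this from -0.07 (without 388_4) to 0.02 (without 388_1), and its sign turned in 3 of 10 cases. The ratio of *Fcgr1* to *Fcgr2b* was 0.640 to 0.745 with PBS and 0.588 to 0.706 with GA, a mean difference of -0.07 on the log2 scale that ran from -0.10 (without 388_4) to -0.03 (without 394_2). Both differences were smaller than the spread between libraries of the same treatment. The ratio of *Fcgr4* to *Fcgr2b* was 0.0219 to 0.0410 with PBS and 0.0356 to 0.0511 with GA, a log2 difference of 0.29 that fell to 0.14 without PBS library 388_4. The ratio of *Fcer1g* to *Fcgr2b* was 1.89 to 2.42 with PBS and 1.72 to 2.04 with GA, with 2 GA libraries below every PBS library and a log2 difference of -0.11 that shrank to -0.05 without 388_4. The ratio of *Fcgrt* to *Fcgr2b* was 0.541 to 0.634 with PBS and 0.474 to 0.541 with GA, a log2 difference of -0.20 (-0.79 ± 0.10 with PBS and -0.99 ± 0.07 with GA, SD, n = 5), and from -0.23 to -0.17 without any 1 library. Here the GA libraries were all lower than the PBS libraries, by a margin of 0.5407 against 0.5412 at the nearest pair. The ratio to *Fcgr2b* separated the groups for 163 of the other 14480 genes (1.13%), and for 1 of the 5 genes set against it here (*Fcgrt*). No test of GA against PBS was run on these ratios.

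**Figure D4:**
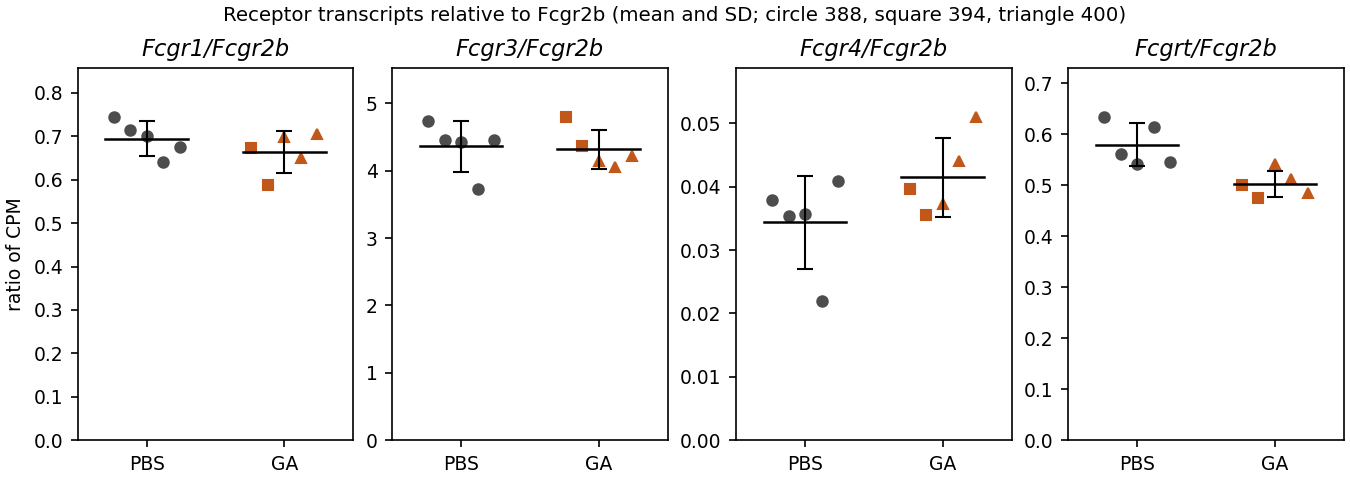
Ratio of the CPM of *Fcgr1*, *Fcgr3*, *Fcgr4* and *Fcgrt* to the CPM of *Fcgr2b* in each library (circles, prefix 388; squares, 394; triangles, 400), with mean and SD, n = 5 per group. PBS library 388_4 is lowest of its group in the first 3 panels, and the groups meet without overlap at 0.541 in the panel of *Fcgrt*.

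Libraries of the same treatment showed how the genes varied together. With the group means removed, *Fcer1g* and *Fcgrt* had the closest pattern among the 15 pairs (Pearson r = 0.84 over 10 libraries), followed by *Fcgr1* and *Fcgr4* (r = 0.76) and by *Fcgr3* and *Fcgr4* (r = 0.60). PBS library 388_4 decided several of these values, and r without it, computed after seeing the data, was 0.68, 0.86 and 0.35 for the same pairs over 9 libraries. Between *Fcer1g* and the receptors it serves, r was 0.10 for *Fcgr1*, -0.43 for *Fcgr4* and -0.38 for *Fcgr3* with 388_4, and 0.73, 0.64 and 0.24 without it. *Fcgrt* likewise turned from -0.32 to 0.37 with *Fcgr4* and from -0.28 to 0.16 with *Fcgr3*. These values are descriptions, since the points share the library and its cell mixture. Over all genes tested, the patterns most like *Fcer1g* were those of *Calm3* (r = 0.97), *Actb* (0.97) and *Selenot* (0.96), and without 388_4 these were 0.87, 0.85 and 0.83. For *Fcgr3* they were *Nin* (0.95), *Lrch3* (0.95) and *Xpo7* (0.95), and for *Fcgr4* *Marcksl1* (0.97), *Thap11* (0.94) and *Ankle2* (0.94). For *Fcgr1* they were *Gm5828* (0.95), *Ybx1* (0.94) and *Rdh14* (0.94), for *Fcgr2b* *Ldha* (0.95), *Prcp* (0.94) and *P4ha1* (0.93), and for *Fcgrt* *Sept10* (0.96), *Slc6a6* (0.95) and *Tcof1* (0.94). These r values are the highest over all 14481 genes, with only 10 libraries.

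Of the other Fc receptor and receptor-like genes listed, 4 of 13 were tested. Here and below, 2 values in a row are the PBS and GA means with their SD over 5 libraries each. The receptor-like *Fcrls*, a signature gene of mouse microglia, had 2544 ± 191 CPM in the PBS group and 2701 ± 187 CPM in the GA group, which differed by 0.09 on the log2 scale (standard error 0.07). *Trim21*, the cytosolic receptor that targets antibody-coated particles for degradation, had 39.9 ± 3.93 and 43.9 ± 4.98 CPM, with 3 GA libraries above every PBS library and a log2 fold change of 0.14 (standard error 0.10). *Fcrl1* had 60.3 ± 6.33 and 54.8 ± 5.49 CPM, with 4 GA libraries below every PBS library and a log2 fold change of -0.14 (standard error 0.09). The adjusted *P*-values of these 3 genes from edgeR ran from 0.896 to 0.910. *Fcer1a* and *Ms4a2*, which with *Fcer1g* form the IgE receptor of mast cells, were at 0 counts in every library. A count of 0 allows for up to 3 counts, here 0.0772 to 0.0930 CPM.

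Among the ligands, the gamma chain genes *Ighg1*, *Ighg2c* and *Ighg3* were counted at most 6 times in any library and *Ighg2b* 2 to 36 times. *Igkc*, the kappa light chain, had 1.74 ± 0.54 CPM with PBS and 1.55 ± 0.44 CPM with GA. *Ighm*, the mu heavy chain, was in contrast counted 17705 to 25208 times, at 572 ± 43.4 CPM with PBS and 609 ± 50.3 CPM with GA. In the same libraries the B cell genes *Ms4a1* and *Cd79a* reached at most 0.419 and 0.618 CPM, while *Cd79b* ran from 16.1 to 26.6 CPM. *Ighm* differed by 0.09 on the log2 scale between treatments (standard error 0.07, adjusted *P* = 0.919 from edgeR). The pentraxins *Apcs*, *Crp* and *Ptx3*, which also bind Fc gamma receptors, were at 0 counts throughout.

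Downstream of the activating receptors, 40 of 41 signalling genes were tested, 18 higher and 22 lower with GA in the fit, with a median log2 fold change of -0.01 beside 0.00 over all genes. At an adjusted *P*-value under 0.05, edgeR, limma-voom and DESeq2 each called 0 of the 40, and at an unadjusted one edgeR passed 2, which is 5.0% beside the 5.75% of all genes. Those were *Card9*, the adaptor that links Syk to NF-κB, with 24.9 ± 6.50 and 33.4 ± 6.55 CPM (log2 fold change 0.43, standard error 0.18, unadjusted *P* = 0.0292 from edgeR's test), and *Mapk3*, the kinase ERK1, with 138 ± 10.7 and 124 ± 3.72 CPM (log2 fold change -0.16, standard error 0.07, unadjusted *P* = 0.0324 from the same edgeR test). Both had an adjusted *P*-value of 0.854 in that test. *Syk*, the kinase that docks on the phosphorylated ITAM, had 225 ± 8.35 and 221 ± 21.6 CPM, and *Lyn*, a Src family kinase that acts before it, had 796 ± 58.2 and 787 ± 64.3 CPM. *Tyrobp*, the ITAM adaptor of the TREM receptors and a counterpart of *Fcer1g*, had 991 ± 104 and 1059 ± 44.2 CPM. For none of these 3 genes did the treatments separate without overlap, as they did for 129 of all 14481 genes (0.891%).

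All 13 genes of the inhibitory arm were tested, 8 higher and 5 lower with GA, and 0 had an adjusted or an unadjusted *P*-value under 0.05 in edgeR, beside 50.1% of all genes higher and 5.75% under 0.05 unadjusted. *Inpp5d*, the phosphatase SHIP1 that *Fcgr2b* recruits, had 1303 ± 57.5 and 1330 ± 108 CPM, and *Ptpn6*, the phosphatase SHP-1, had 574 ± 30.5 and 616 ± 38.8 CPM (log2 fold change 0.10, standard error 0.06). *Dok2*, an adaptor that recruits a Ras GTPase-activating protein, had the lowest fitted value of the list, -0.56 on the log2 scale (standard error 0.29, adjusted *P* = 0.876 from edgeR), at only 61 to 185 counts per library. Of the 16 genes listed as regulators of receptor transcription, all were tested, 10 were higher and 6 lower, and again 0 passed at an adjusted or an unadjusted *P*-value of 0.05 in edgeR, beside the same shares of all genes. *Spi1* (PU.1) had 387 ± 31.0 and 395 ± 17.5 CPM, and *Irf8*, its partner in myeloid cells, had 969 ± 66.3 and 952 ± 12.6 CPM. *Ifngr1*, the ligand-binding chain of the interferon-γ receptor, had 1560 ± 128 and 1472 ± 55.0 CPM, which differed by -0.08 on the log2 scale (standard error 0.06).

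**Figure D5:**
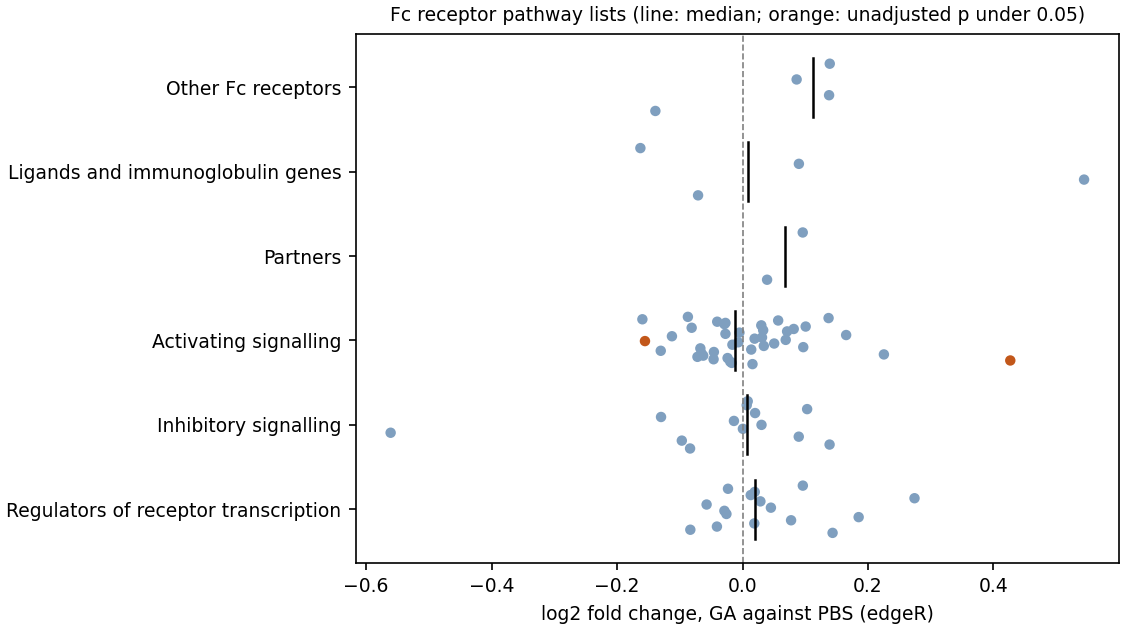
Log2 fold change of GA against PBS from edgeR for each tested gene of the 6 pathway lists, with the median of each list as a black line and genes with an unadjusted *P*-value under 0.05 in orange. Most values lie near 0, and the 2 orange points, at 0.43 and -0.16, are *Card9* and *Mapk3*.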

How the data were processed

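The authors deposited raw counts of reads per gene, whole numbers without normalization, for 10 libraries of single-end 100-base reads. The submitters' processing notes name bcl2fastq 2.19.0, fastp 0.20.0, STAR 2.7.0f, Subread 1.6.4, featureCounts, DESeq2 and GRCm38.p6. The annotation release, the strand setting and the treatment of multimapping reads are not given in the sources used here. No column lacked a sample. R 4.3.3, edgeR 4.0.16, limma 3.58.1, DESeq2 1.42.0 and Python 3.11.15 were used. Genes were kept by filterByExpr (minimum count 10), normalized by TMM and tested for GA against PBS with edgeR's quasi-likelihood F-test across all genes, without covariates, with Benjamini-Hochberg adjustment at 0.05. The scripts were tested on simulated data. Single genes were compared by exact permutation tests on log2(CPM + 0.1). The 95% intervals come from edgeR's fit and include the spread between libraries, whereas the limit of 3 counts for a count of 0 covers counting error only. The genes and lists were chosen with earlier results of these data known. Named were the 6 genes, fixed partners, the gene with the smallest *P*-value per list and direction, the 3 most similar patterns per gene, and genes overlapping any of the 6. Other listed immunoglobulin genes, IgE receptor genes and pentraxins, and single markers, and genes called outside the 6, were named after their values were seen. Some items are not reported here. Alternatives were DESeq2, limma-voom, robust fits, DESeq2-type size factors, other filters, pseudocounts and lengths, CPM without TMM, each library left out, and GA libraries of either prefix alone.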

Additional observations from a re-analysis of the deposited data

Results flagged for a closer look

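Of 28 groups of 5 values (6 genes and 8 ratios in 2 treatments), 5 held a library beyond Dixon's 95% limit for 5 samples. The value set against that limit is the gap to the nearest neighbour divided by the range of the group. Chance gives such a library in about 1 in 20 groups, and the ratios share their genes. *Fcgr1* was high in PBS library 388_5, at 296 CPM. In PBS library 388_4 the log2 ratio of *Fcgr3* to *Fcgr2b* was low at 1.90, that of *Fcgr4* to *Fcgr2b* was low at -5.51 and that of *Fcgr3* to *Fcer1g* was low at 0.62. In PBS library 388_1 the log2 ratio of *B2m* to *Fcgrt* was low at 2.57. The part of the other cell types in 388_4 in these values was not tested.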

How the results depend on the processing

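The number of genes called was 0 in edgeR, 2 with DESeq2, and 0 to 1 when each library was left out (1, *Gm15920*, without GA library 394_1). None of the 6 genes and none of the 79 tested list genes was called in any of the 19 fits, and the smallest adjusted *P*-value of any of the 6 was 0.585. List genes with an unadjusted *P*-value under 0.05 numbered 2 of 79 in edgeR, which is 2.53% beside 5.75% of all genes. They numbered 1 without a filter on low counts, 1 with prefix 394 alone and 6 with prefix 400 alone. Without each library in turn they numbered 0 (without GA library 400_1) to 5 (without PBS library 388_2), with 1 without 388_4, 400_2 or 400_3. Over all genes, 833 passed this level in edgeR, 1901 without the filter, 1245 with DESeq2, 503 with prefix 394 alone, 977 with prefix 400 alone, and 595 to 1137 without each library in turn. These counts are not shares of the same number, since each fit was filtered anew and the unfiltered fit and DESeq2 tested more genes. With the longest transcript as length, 3 of the 6 genes changed rank, and with unique windows 0. The fitted sign was constant over all fits for *Fcgr2b*, *Fcgr4* and *Fcgrt*, and changed in 3 fits for *Fcgr1* and 1 each for *Fcgr3* and *Fcer1g*. The permutation *P*-value of *Fcgrt* ranged from 0.0159 to 0.0397 over the pseudocounts and scalings tried. No paired analysis was possible because the labels give the 2 groups no shared replicate numbers that mark an animal, litter or day.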
